A study of Mus musculus with 7 samples.

Results

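Voltage-gated calcium channels were examined in MIN6, an insulin-secreting line of mouse beta-cell origin, through 10 genes of pore-forming and auxiliary subunits. The rule names the genes and uses no measured value: the pore genes Cacna1a, Cacna1b, Cacna1c, Cacna1d, Cacna1g and Cacna1h, the beta subunit genes Cacnb1, Cacnb2 and Cacnb3, and the alpha2-delta gene Cacna2d1. Their members on the array were the 27 probes, of 56605 in all, whose listed RefSeq transcript belongs to one of these genes. Cells at passage 20 to 30 received phosphate-buffered saline as vehicle (3 arrays) or MPE, a polysaccharide extract of Maidong (4 arrays), and total RNA was taken after 3 days in both groups. Culture notes in the labels mention concentrations of MPE no higher than 50 μg/mL; the one behind the arrays is not stated. Separate cultures are not stated for the replicates either, so each p-value reflects only the spread of these samples, possibly technical. MIN6 is a single tumour-derived line, and the 2 groups share its genotype and medium.

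In beta cells, glucose metabolism closes ATP-sensitive potassium channels, the membrane depolarizes, and calcium enters through voltage-gated channels to trigger insulin granule fusion. Each channel is built around an alpha1 subunit that holds the pore, the voltage sensor and the drug-binding sites. An intracellular beta subunit brings high-voltage-activated alpha1 subunits to the surface and tunes their gating, and an extracellular, glycosylated alpha2-delta subunit, the target of gabapentin, raises the number of channels in the membrane. T-type channels open at weak depolarization and do not need these auxiliary subunits.

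Between 27944 and 28514 probes per array were well above background with MPE, and 29501 to 30122 with vehicle. The dimmest signal that still passed the background test was 20.6 to 24.4 intensity units with MPE and 12.6 to 15.5 with vehicle, so a dim probe met a higher bar on the MPE arrays. All arrays lay on 1 slide, vehicle in its first row and MPE in its second, so row and treatment cannot be told apart. Of 12 beta-cell markers, 12 were well above background on at least 3 arrays, among them Ins1, Ins2, Pdx1, Mafa and Abcc8, and their median log2 difference was -0.06. Markers of other cells met that bar for 5 of 8 other islet genes, 2 of 8 exocrine and duct genes, 5 of 10 stromal, endothelial and immune genes, 5 of 6 neuronal genes and 1 of 6 muscle genes. Among those that met it were Gcg, Sst, Itgam, Acta2, Nefl, Syn1 and Map2, and among those below it Ptprc, Pecam1, Col1a1, Rbfox3 and Ckm. None of the marker genes was called. At an unadjusted limma p under 0.05, 3 stromal, endothelial and immune genes (Tagln, Esam, Itgam) were lower. The other tested genes of that list, Acta2 and Cd68, stood at 0.06 and 0.10. By the same measure 1 neuronal gene was lower, Snap25, which is also listed below as a channel partner, and 1 exocrine gene, Cel, was higher. Of all 22102 genes tested, 4.12% had such a p in either direction, and 3.35% had such a p and were lower. Whether these signals came from MIN6 itself or from other cells was not tested, nor was any part of other cells in the values of the channel genes.

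All 10 subunit genes had a probe well above background on all 7 arrays. Among genes with a symbol, 59.7% (13671 of 22911) had a probe well above background on at least 3 arrays. In a list of 16 other subunit genes, 7 met that bar. Members and that list were both chosen with earlier results of these data known. The bar of all 7 arrays was met by 19740 of 45616 genes, counting transcripts without a symbol. Of the 27 probes, 18 were well above background on all 7 arrays, 3 on some arrays and 6 on none. The 20 probes that passed on at least 3 arrays were tested, and the remaining 7 were not. A probe's brightness depends on its sequence as well as on its transcript, so each probe was set only against background and against itself on other arrays, and the subunits were not ranked by level.

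**Figure D1:**
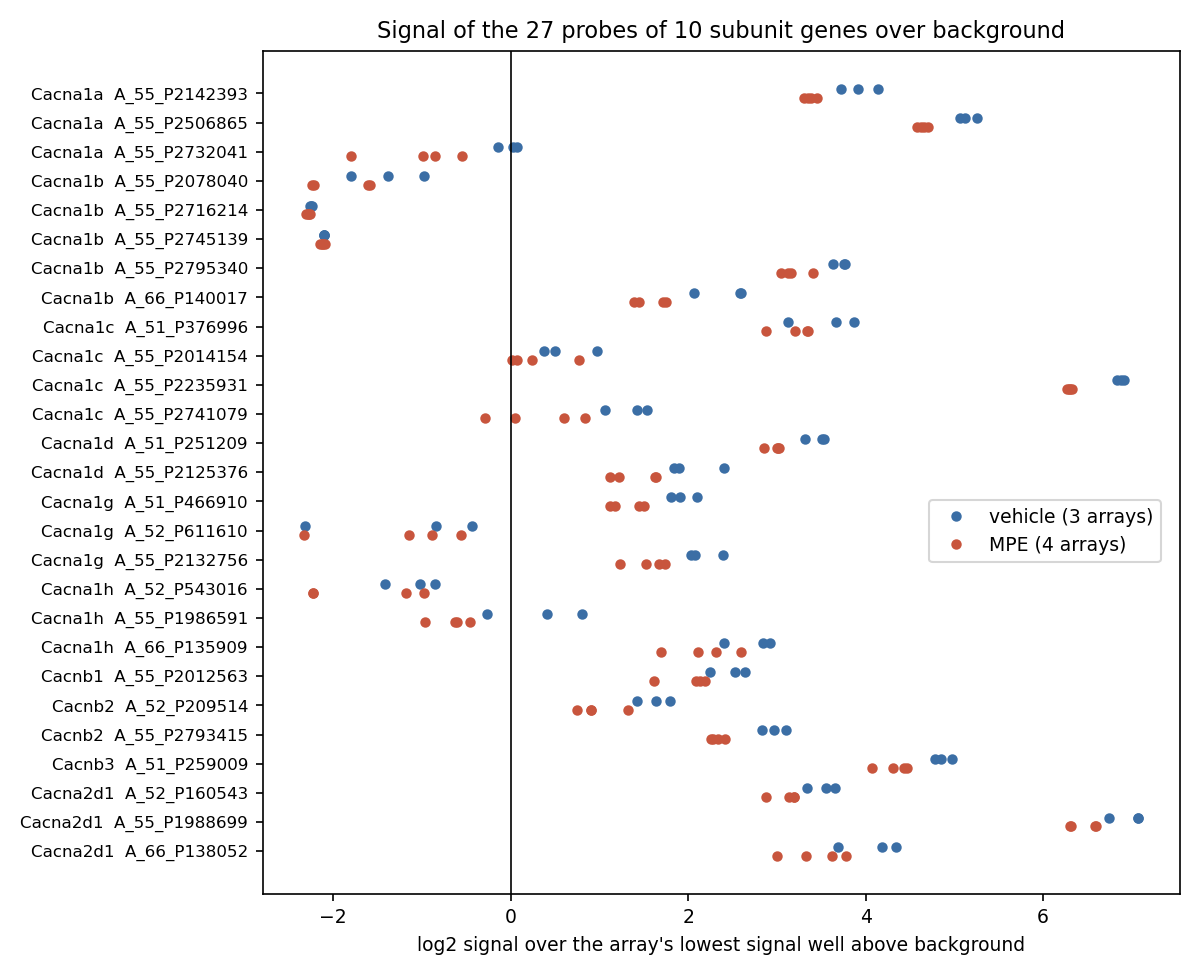
Signal of each of the 27 probes on each array, as log2 over the lowest signal that counted as well above background on that array (horizontal axis, the line at 0 marks that signal), with 3 vehicle arrays in blue and 4 MPE arrays in red. For 18 probes all 7 points met the background test, and the red points tend to lie left of the blue ones, with the bar higher on the MPE arrays.

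The start regions of the genes were compared to show a property that detected and undetected subunits do not share to the same degree, the number of CG dinucleotides. RefSeq windows of 300 bases (GRCm38.p6, 250 before to 50 after the start) were matched by symbol for 7 of the 10 genes, with 13 windows, and the genes not matched were Cacna1a, Cacna1g and Cacna1h. By each gene's richest window, these 7 genes had 29 to 63 CG, with a median of 35. Among 13 other subunit genes with a window, the 6 detected on the array had 9 to 43 (median 21.5) and the 7 not detected had 2 to 41 (median 9). The ranges overlapped: the alpha2-delta gene Cacna2d3, which was not detected, had 41, and Cacng3, which was detected, had 9. Over all genes the median was 21 for detected and 4 for undetected genes, and 88.9% of genes with 30 or more CG were detected against 26.1% of those with 9 or fewer. The Sp1-type box GGGCGG, on either strand, was in 8 of the 13 windows and in 35.7% of all windows; the box contains a CG itself. TATAAA was in 1 of the 13 windows, a second start of Cacna1d, and in 13.6% of all windows. The 250 bases before the start are printed for an L-type pore gene and an alpha2-delta gene that were detected, and for the R-type pore gene Cacna1e, whose probe was not, from 5′ to 3′ with each CG in capitals. They hold 50 CG (Cacna1d, chr14:30353487-30353736, minus strand), 36 CG (Cacna2d1, chr5:15934441-15934690, plus strand) and 6 CG (Cacna1e, chr1:154725921-154726170, minus strand).
Cacna1d: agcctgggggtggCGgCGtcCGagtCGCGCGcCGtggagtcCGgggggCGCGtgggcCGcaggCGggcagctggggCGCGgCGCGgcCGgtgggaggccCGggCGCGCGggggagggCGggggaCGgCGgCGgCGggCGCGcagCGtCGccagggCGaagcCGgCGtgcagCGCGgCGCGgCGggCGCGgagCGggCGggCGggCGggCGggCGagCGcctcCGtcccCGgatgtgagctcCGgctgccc
Cacna2d1: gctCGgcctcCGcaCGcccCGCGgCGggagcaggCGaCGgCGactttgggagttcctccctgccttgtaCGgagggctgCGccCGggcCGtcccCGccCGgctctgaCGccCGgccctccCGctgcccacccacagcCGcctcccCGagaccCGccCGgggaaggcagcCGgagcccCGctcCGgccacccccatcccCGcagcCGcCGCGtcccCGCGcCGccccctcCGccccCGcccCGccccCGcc
Cacna1e: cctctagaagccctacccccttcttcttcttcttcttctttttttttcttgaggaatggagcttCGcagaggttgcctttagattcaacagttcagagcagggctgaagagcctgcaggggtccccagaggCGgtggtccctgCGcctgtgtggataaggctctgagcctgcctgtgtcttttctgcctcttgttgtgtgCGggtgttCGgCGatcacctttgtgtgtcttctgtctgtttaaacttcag
The share of detected genes beside CG count is a description across genes, which are not replicates, and the arrays do not show which start was used.

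Levels below are log2 intensities relative to the 75th percentile of the same array, given for the probe that represents the gene, the one with the highest mean. The L-type gene Cacna1c, a main route of glucose-stimulated calcium entry in mouse beta cells, had vehicle levels of 2.26, 2.18 and 2.22 and MPE levels of 2.15, 2.18, 2.17 and 2.13. The groups overlapped narrowly, with MPE replicate 2 just above vehicle replicate 2. The difference was -0.06 (SE 0.05), or 0.959 times vehicle with a 95% interval of 0.887 to 1.04 (limma adjusted p = 1.00 over all genes). The other L-type gene, Cacna1d, whose channel opens at more negative potentials, had vehicle levels of -1.31, -1.23 and -1.09 and MPE levels of -1.15, -1.30, -1.10 and -1.14. Every MPE level lay inside the vehicle range. MPE stood at 1.02 times vehicle (0.902 to 1.16).

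Of the genes for neuronal-type high-voltage channels, the P/Q-type gene Cacna1a had vehicle levels of 0.44, 0.52 and 0.50 and MPE levels of 0.42, 0.55, 0.51 and 0.50. It stood at 1.01 times vehicle (0.920 to 1.10), and its 7 arrays spanned 0.13 log2 units. The N-type gene Cacna1b had vehicle levels of -0.99, -0.98 and -0.85 and MPE levels of -1.11, -1.03, -0.95 and -0.76. The lowest and the highest array were both MPE arrays. It stood at 0.983 times vehicle (0.844 to 1.15).

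The T-type genes were represented by probes closer to background than those of the other 4 pore genes, and their intervals were wider. Cacna1g had vehicle levels of -2.54, -2.70 and -2.22 and MPE levels of -2.92, -2.63, -2.44 and -2.43. MPE replicate 1 was the lowest array and vehicle replicate 3 the highest. It stood at 0.922 times vehicle (0.707 to 1.20), a log2 difference of -0.12 that went to -0.011 without MPE replicate 1, -0.23 without vehicle replicate 2 and 0.017 without vehicle replicate 3. Cacna1h, the T-type gene with the widest interval of the 10 genes, had vehicle levels of -1.70, -1.89 and -2.22 and MPE levels of -1.85, -1.55, -2.41 and -2.05. The MPE arrays reached both above and below the vehicle range. It stood at 0.979 times vehicle (0.687 to 1.39), and the log2 difference went from -0.03 to 0.12 with the slide column as a block, a fit that takes nothing from MPE replicate 3, and likewise to 0.12 without that array.

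Among auxiliary subunits, the beta subunit gene Cacnb1 had vehicle levels of -1.98, -2.20 and -2.37 and MPE levels of -1.96, -2.02, -2.50 and -2.08. It stood at 1.03 times vehicle (0.802 to 1.33), with MPE replicate 3 the lowest of the 7 arrays. Cacnb2, whose product also serves the cardiac L-type channel, had vehicle levels of -1.79, -1.76 and -1.52 and MPE levels of -1.90, -1.74, -1.83 and -1.83. It had the smallest unadjusted p of the 10 genes, 0.139 by limma (adjusted p = 1.00), at 0.910 times vehicle (0.796 to 1.04). Its log2 difference was -0.14, and -0.051 without vehicle replicate 3. The groups overlapped, with vehicle replicate 3 above the other 6 arrays. Cacnb3 had vehicle levels of 0.35, 0.11 and 0.16 and MPE levels of 0.16, 0.32, -0.03 and 0.27, at 0.978 times vehicle (0.826 to 1.16). The alpha2-delta gene Cacna2d1 had vehicle levels of 2.45, 2.34 and 2.13 and MPE levels of 2.44, 2.43, 2.19 and 2.15. The group means were 2.30 in both groups, and MPE stood at 1.00 times vehicle (0.834 to 1.20).

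**Figure D2:**
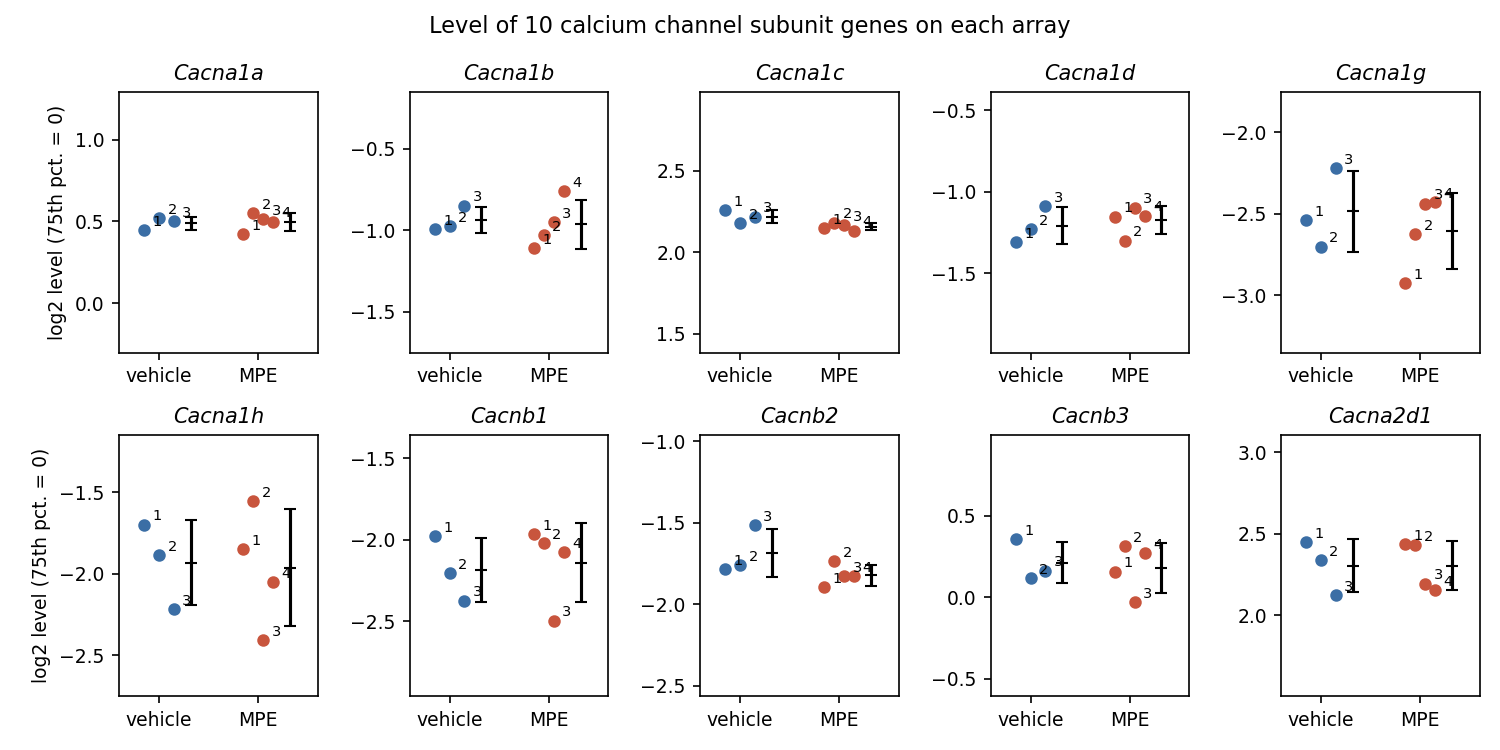
Level of each of the 10 genes on each array (vertical axis, log2 intensity relative to the array's 75th percentile, every panel spanning 1.6 log2 units), vehicle in blue and MPE in red, with replicate numbers beside the points and group mean ± SD as black bars. The groups overlap in every panel, most tightly for Cacna1a and Cacna1c.

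None of the 10 genes was called between the treatments, and 0 of the 10 had an unadjusted limma p under 0.05. Over all 22102 genes tested, 0.00452% were called higher and 0% lower at an adjusted p under 0.05, and 4.12% had an unadjusted p under 0.05. Arrays of MPE and vehicle were fully separated for 0 of the 10 genes and for 4.52% of all genes. Of the 10 genes 4 were higher and 6 lower; their median log2 difference was -0.03, beside -0.02 over all genes. With each array scaled to its median, which moved the median of all genes to -0.09, 0 were higher and 10 lower (median -0.10). For 10 of 10 genes the whole 95% interval in this fit was narrower than 1.5-fold either way, as for 80.6% of all genes. That bound covers these probes, arrays and this fit only, and row and treatment cannot be told apart. Cacna1h, with the widest interval, had an SE of 0.21 in this fit. It stood at -0.10 (SE 0.23) with median scaling and at -0.17 (SE 0.23) without vehicle replicate 3. Intervals under the alternatives were not set against 1.5-fold.

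The other probes of the genes were tested in a fit over all 28943 probes that passed, where 0.0104% were called and 4.16% had an unadjusted p under 0.05. Of the 20 probes of these genes 0 were called, 0 had an unadjusted p under 0.05, and the arrays of the groups did not overlap for 0. Their log2 differences ran from -0.53 to 0.17, 7 higher and 13 lower. The smallest unadjusted p was 0.0619, for a second Cacna1b probe (A_66_P140017), with vehicle levels of -2.03, -2.14 and -2.55 and MPE levels of -2.41, -2.43, -2.72 and -2.72. Its difference was -0.33 (SE 0.15, limma adjusted p = 1.00), where the probe that represents Cacna1b gave -0.02. The most negative difference belonged to the dim Cacna1c probe A_55_P2741079, with vehicle levels of -3.19, -3.19 and -3.55 and MPE levels of -4.44, -3.32, -4.06 and -3.56. It was well above background on 3 of 3 vehicle and 2 of 4 MPE arrays, and its interval ran from -1.17 to 0.11. Including this one, 5 of the 20 probes had intervals past 1.5-fold in a direction: 3 of Cacna1c, 1 of Cacna1b and 1 of Cacna2d1. The 4 Cacna1c probes differed in sign, at -0.53, -0.06, 0.15 and 0.17. The probe at 0.17 (A_55_P2014154) was dim too, at a median of 1.30 times the lowest signal well above background. It met the background test on 3 of 3 vehicle and 3 of 4 MPE arrays.

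**Figure D3:**
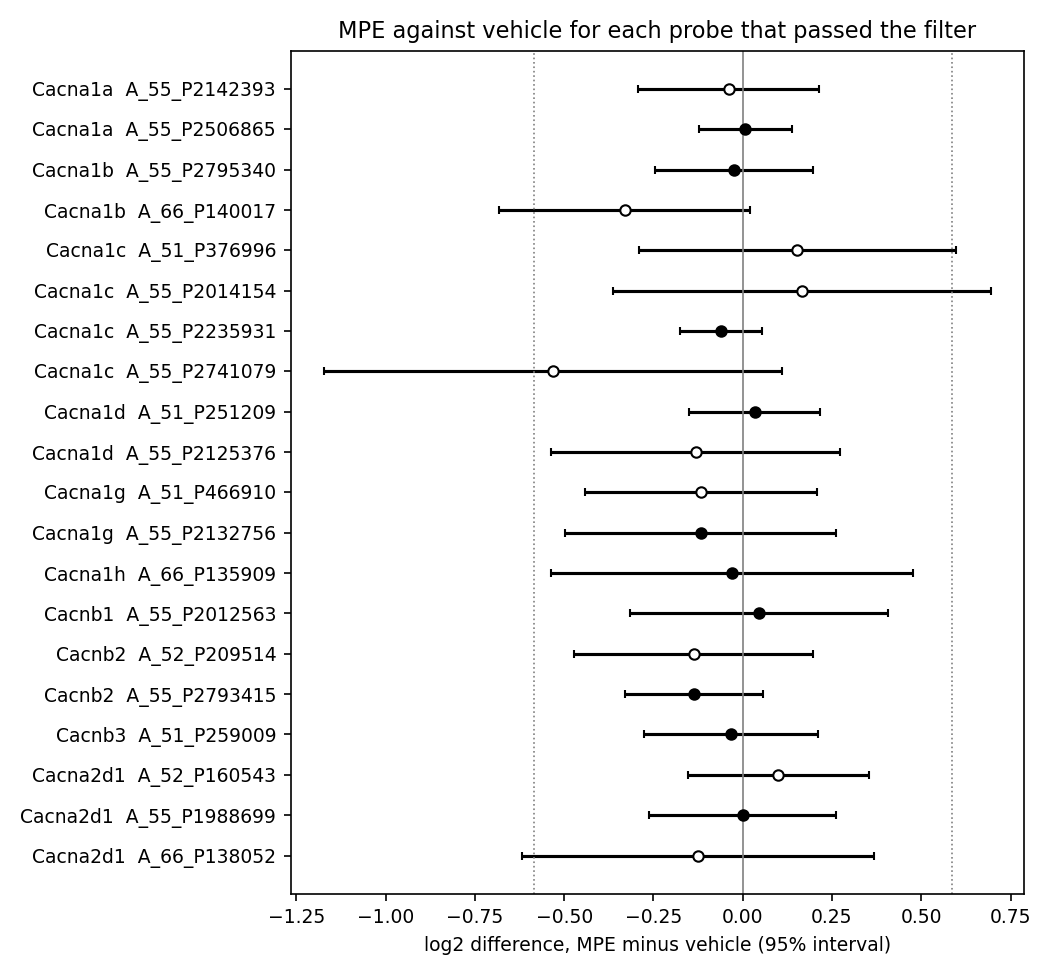
Log2 difference, MPE minus vehicle, with its 95% interval for the 20 probes that passed the filter, from the fit over all probes. Filled points are the probes that represent a gene and open points the other probes, and dotted lines mark 1.5-fold; every interval includes 0, and those of 5 open points cross a dotted line.

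The 7 probes that were not tested belonged to Cacna1a (1), Cacna1b (3), Cacna1g (1) and Cacna1h (2). For Cacna1b, 2 of these were designed to predicted transcripts, and both sat at the floor of every array. The Cacna1h probe A_55_P1986591 was well above background on 2 of 3 vehicle arrays and on 0 of 4 MPE arrays, with vehicle levels of -4.89, -3.93 and -4.20 and MPE levels of -4.76, -4.78, -5.07 and -4.63. The lowest levels counted as well above background were -4.73 to -4.61 with vehicle and -4.16 to -4.11 with MPE, so the vehicle mean of -4.34 would itself not have met the bar of the MPE arrays, and no fold is given.

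Part of the spread within each group followed the place on the slide. Columns 1 and 2 of the slide held replicates 1 and 2 of both groups, column 3 held MPE replicate 3, and column 4 held vehicle replicate 3 and MPE replicate 4. Columns 1 and 2 against 3 and 4 therefore cannot be told apart from replicates 1 and 2 against 3 and 4. For Cacna2d1 the 4 arrays of columns 1 and 2 had a mean of 2.41 ± 0.05 (SD, n = 4) and the 3 arrays of columns 3 and 4 a mean of 2.16 ± 0.03 (SD, n = 3). The gap was -0.27 within vehicle and -0.26 within MPE. A second Cacna2d1 probe (A_66_P138052) showed -0.52 in each group, while the third (A_52_P160543) showed 0.12 within vehicle and 0.15 within MPE. The same gap was -0.42 and -0.53 for Cacna1h, and 0.40 and 0.34 for the representing probe of Cacna1g. The second Cacna1g probe gave 0.31 within vehicle and 0.017 within MPE, and its arrays overlapped. For Cacna1d the gap was 0.18 and 0.10 by the representing probe and -0.25 and 0.075 by the second. For Cacna1b it was 0.13 and 0.21 by the representing probe but -0.46 and -0.30 by A_66_P140017.

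For 5 of the 10 genes the arrays of columns 1 and 2 did not overlap those of columns 3 and 4, with columns 3 and 4 below for Cacna1h and Cacna2d1 and above for Cacna1b, Cacna1d and Cacna1g. Among all genes 27.8% did not overlap, 16.1% below and 11.7% above. The split was described after the values were seen and was not tested. For 8 of the 10 genes the mean difference between these columns was larger than that between treatments, the exceptions being Cacna1c and Cacnb2, and so it was for 69.3% of all genes.

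**Figure D4:**
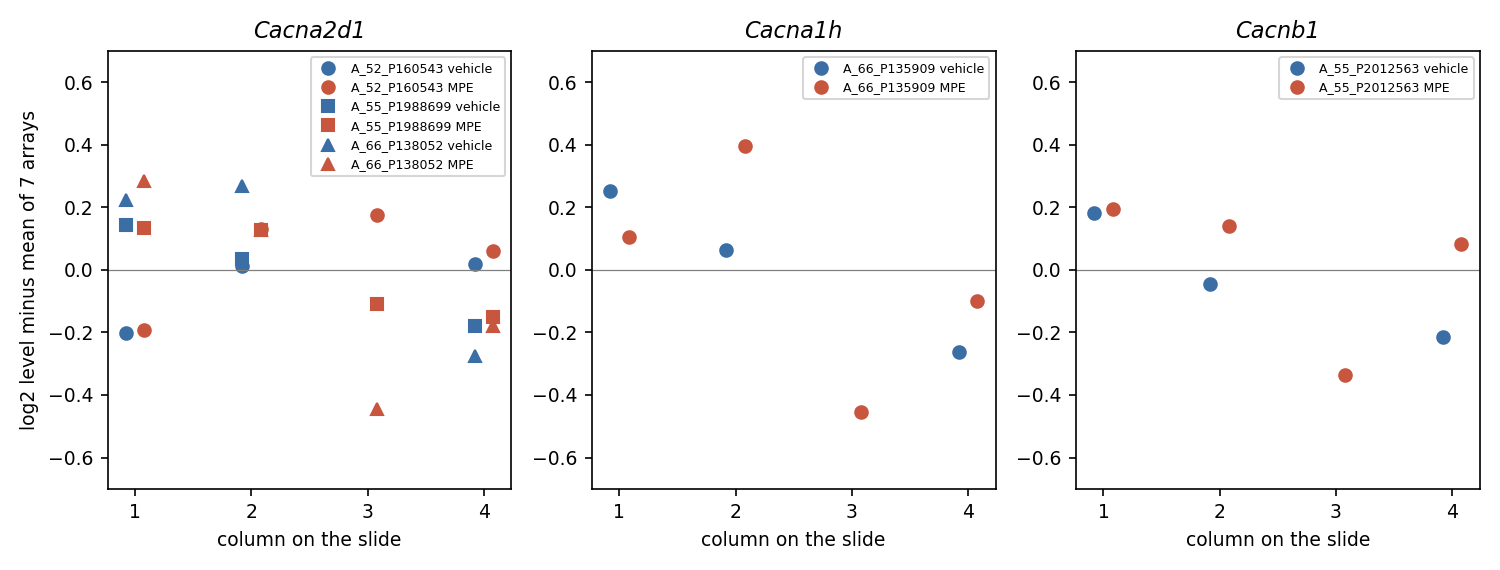
Level of each tested probe of Cacna2d1, Cacna1h and Cacnb1 as log2 deviation from its mean over 7 arrays (vertical axis) against the column of the array on the slide (horizontal axis), vehicle in blue and MPE in red, with a marker shape per probe. For Cacna2d1 the squares and triangles are high in columns 1 and 2 and low in columns 3 and 4 in both groups, and the circles are not.

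The genes whose levels over the 7 arrays were most like those of the pore genes were sought among 22045 genes by Pearson's r. They were Armcx6 for Cacna1a (r = 0.976), Zfp595 for Cacna1b (0.973) and 2900041M22Rik for Cacna1c (0.977), and transcripts with no symbol for Cacna1d (0.984), Cacna1g (0.982) and Cacna1h (0.989). A median gene had a best partner at r = 0.988, so a value of this size over 7 arrays sets none of them apart.

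The other subunit genes were taken from a list of 16, of which 7 passed the filter and 0 passed the test. The R-type pore gene Cacna1e, the retinal Cacna1f and the skeletal-muscle Cacna1s did not pass the filter, and neither did Cacna2d3, Cacna2d4, Cacng1, Cacng5, Cacng6 and Cacng8. Cacna1e had 1 probe, well above background on 0 of 7 arrays, which says that this probe gave no signal and not that the transcript was absent. The third T-type gene, Cacna1i, passed, with vehicle levels of -3.00, -3.16 and -2.70 and MPE levels of -2.90, -2.98, -2.92 and -2.84, a difference of 0.04 (SE 0.11).

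Cacnb4, the fourth beta subunit gene, was well above background on 3 of 3 vehicle and 2 of 4 MPE arrays. Its difference was -0.37 with an interval of -0.87 to 0.13. The difference was -0.17 with normexp background correction and -0.21 without vehicle replicate 3. Its probe was dim, at a median of 1.22 times the lowest signal well above background. The part of the higher bar on the MPE arrays in this difference was not tested. Cacna2d2, an alpha2-delta gene, had vehicle levels of -3.37, -3.43 and -3.30 and MPE levels of -3.81, -3.84, -3.77 and -3.32. MPE replicate 4 lay within the vehicle range and the other 3 MPE arrays below it. This probe was also dim, at a median of 1.79 times the lowest signal well above background. The difference was -0.32 (SE 0.13, limma adjusted p = 1.00), and -0.15 with normexp background correction. Cacng4, whose product is known mainly as an auxiliary subunit of AMPA-type glutamate receptors, had vehicle levels of -3.81, -3.84 and -3.95 and MPE levels of -3.78, -3.55, -3.33 and -3.64. Every MPE array lay above every vehicle array. The difference was 0.29 (SE 0.11, limma adjusted p = 1.00), and 0.057 with normexp. The probe was dim, at a median of 1.59 times the lowest signal well above background, and the floor of the arrays was also higher with MPE; its part in the difference was not tested. Of the 7 tested genes, 1 higher (Cacng4) and 1 lower (Cacna2d2) had an unadjusted limma p under 0.05, as had 4.12% of all genes in either direction. A separation like that of Cacng4, with every MPE array above every vehicle array, held for 1.17% of all genes. The related genes Cacng2, Cacng3 and Cacng7 differed by 0.02, 0.07 and -0.12.

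Genes upstream and downstream of calcium entry were described from 5 further lists, and none of their tested members passed the test in either direction. By limma's unadjusted p under 0.05, channel partners and regulators had 1 gene higher and 2 lower, extrusion and mitochondrial uptake 0 higher and 1 lower, and the other 3 lists 0. In channel partners and regulators, 23 of 27 genes were tested, 13 higher and 10 lower (median 0.02). Akap5, an anchoring protein that holds kinases and calcineurin at L-type channels, had the smallest p of that list, at -0.22 (SE 0.07, limma adjusted p = 1.00), its MPE arrays each lower than its lowest vehicle array, as for 3.35% of all genes. The mean over its 2 probes gave -0.042. Snap25, a fusion protein that binds calcium channels, stood at -0.27 (SE 0.10), and at -0.085 by the mean over its 2 probes. The 1 gene of the list that was higher at that unadjusted p was Rem2, at 0.31 (SE 0.12), with overlapping groups.

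Stores and store-operated entry had 13 of 15 genes tested, 6 higher and 7 lower (median -0.02). The ryanodine receptor gene Ryr2, a release channel of the endoplasmic reticulum, stood at -0.14 (SE 0.06) by its representing probe, with every MPE array below every vehicle array. It stood at -0.034 by the mean over its 2 probes and at -0.081 with normexp. The reticulum pump gene Atp2a2 stood at -0.11 (SE 0.09), and at -0.0099 by the mean over its 3 probes. In extrusion and mitochondrial uptake, 13 of 14 were tested, 3 higher and 10 lower (median -0.06). The sodium-calcium exchanger gene Slc8a3 had vehicle levels of 2.36, 2.59 and 2.15 and MPE levels of 1.92, 1.77, 1.95 and 2.20. MPE replicate 4 overlapped vehicle replicate 3, and the difference was -0.41 (SE 0.14, limma adjusted p = 1.00). The plasma-membrane pump gene Atp2b3 stood at -0.29 (SE 0.17), at -0.15 with normexp and at -0.16 without MPE replicate 3.

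In the list for membrane depolarization and repolarization, 10 of 13 genes were tested, 4 higher and 6 lower (median -0.03). The potassium channel pore gene Kcnj11 stood at 0.11 (SE 0.08), and at 0.048 by the mean over its 2 probes. Activity-dependent immediate early genes, which calcium entry induces, had 13 of 14 tested, 4 higher and 9 lower (median -0.05). Of these, Nr4a2 stood at -0.12 (SE 0.09) and Nr4a3 at -0.19 (SE 0.16). With an array left out they ranged from -0.20 to -0.068 and from -0.33 to -0.099. The early genes were the least precise of these 5 lists, with intervals inside 1.5-fold for 9 of 13, and the interval of Fos ran from -1.10 to 0.71.

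**Figure D5:**
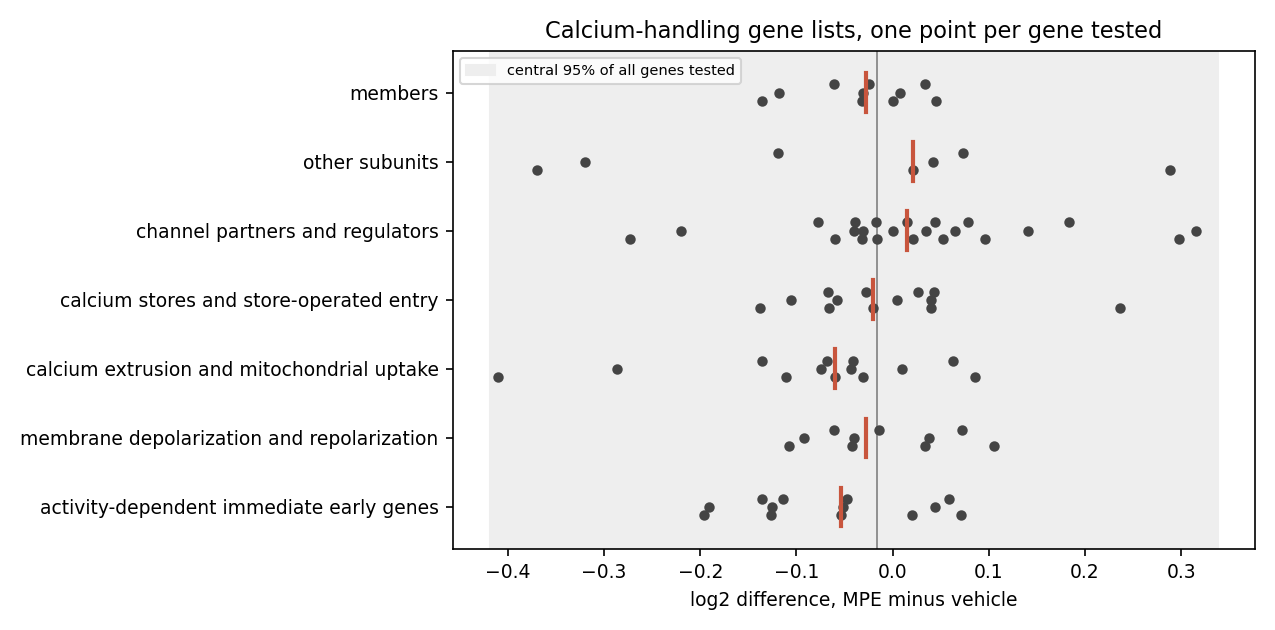
Log2 difference, MPE minus vehicle, of each tested gene (points) in the 10 subunit genes and 6 lists of related genes, with each list's median as a red bar. The grey band holds the central 95% of all 22102 genes (-0.42 to 0.34) and the grey line their median, and every point of these lists lies inside the band.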

How the data were processed

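Cy3-labelled cRNA made from 100 ng of total RNA was measured on Agilent mouse arrays in 1 colour, per the labels' protocols. Deposited spot intensities come from Agilent Feature Extraction (11.5.1.1 per the file headers, 10.5.1.1 per the submitters' processing notes), background-subtracted and detrended within each array, and the deposited flags mark controls, outliers and spots well above background. The authors' value table holds quantile-normalized log2 values (correlation with its own array's log2 intensity at least 0.9996), by a tool not given in the sources used here.

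Spots for controls were dropped, as were 611 spot values marked as outliers, so that an array with no usable spot was missing from a probe's fit. Log2 intensities were averaged per probe, and the 75th percentile of the array was subtracted. Symbols came from RefSeq tables (GRCm38.p6, names only), which matched 32994 of 56605 probes. A probe was kept if it was well above background on 3 or more arrays, and the probe with the highest mean stood for its gene. The groups were compared with lmFit and eBayes (limma 3.58.1, R 4.3.3) with Benjamini-Hochberg adjustment over all genes. The fit was tested on simulated data. The number of arrays limits the precision.

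The rule for the members uses no values, but members and lists alike were chosen with earlier results of these data known. The text names all member genes and probes, the other subunit genes that passed the filter, the 2 genes of smallest p in each further list, and the gene most like each pore gene; 1 gene that this rule names is not reported here. Other genes named (markers, Fos, Rem2 and genes that did not pass the filter) were chosen after their values were seen. Alternatives covered scaling, background correction, filter, value table, probe choice, variance model, blocks, threshold and each array left out. Normexp was run on the median spot intensity, as the scanner tables used here have a median and no mean column for spots.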

Additional observations from a re-analysis of the deposited data

Results flagged for a closer look

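Among 28 probes of calcium channel subunits checked for 1 array of the MPE group standing apart from the other 3, 2 did, and chance would give about 1 in 20 such groups. MPE replicate 4 stood at -3.32 for the Cacna2d2 probe, against -3.84 to -3.77 on the other MPE arrays. The same array stood at -1.70 for the Cacng2 probe, against -1.45 to -1.41. None of the 20 tested probes of the 10 subunit genes had such an array.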

How the results depend on the processing

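None of the 10 genes was called under any alternative, including the replicate block, the slide column block and an adjusted p under 0.1, and all 10 were well above background under each detection rule. Of the values of named genes under alternatives, 462 kept their direction and stayed uncalled, and 50 turned sign. With median scaling, Cacna1a, Cacna1d, Cacnb1, Cacna2d1, Cacna1i and Cacng2 went to -0.062, -0.036, -0.024, -0.069, -0.028 and -0.049. With the mean over probes of a gene, Cacna1a, Cacna1d and Cacna2d1 went to -0.016, -0.049 and -0.0084. With array quality weights, Cacna1a, Cacna1h, Cacnb3, Cacng2 and Cacng7 went to -0.0068, 0.075, 0.032, -0.048 and 0.0048. With normexp background correction, Cacna1b, Cacnb1, Cacnb3, Cacna2d1, Cacna1i and Cacng3 went to 0.016, -0.066, 0.0083, -0.0024, -0.077 and -0.016. With the slide column block, Cacna1h, Cacnb3 and Cacng2 went to 0.12, 0.037 and -0.0080. With quantile normalization, Cacnb1, Cacna1i and Cacng2 went to -0.0054, -0.037 and -0.0082. In the authors' value table, Cacnb1, Cacna1i and Cacng2 went to -0.010, -0.042 and -0.015. Leaving out each array gave -0.015 to 0.033 for Cacna1a, -0.092 to 0.025 for Cacna1b, -0.016 to 0.094 for Cacna1d, -0.23 to 0.017 for Cacna1g, -0.17 to 0.12 for Cacna1h, -0.049 to 0.16 for Cacnb1, -0.080 to 0.040 for Cacnb3, -0.089 to 0.072 for Cacna2d1, -0.061 to 0.17 for Cacna1i, -0.060 to 0.14 for Cacng2 and -0.30 to 0.13 for Cacng7. Median scaling subtracts 1 value per array, so it shifted the genes named for it by a common amount. The cause of the other turns was not tested.

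Over all genes the count of calls, 1 in the comparison as reported, was 0 with normexp, 0 with the filter on all 7 arrays, 0 with the replicate block, 0 with the slide column block, 3 with a trended robust variance, 4 with array weights, 2 at an adjusted p under 0.1, 3 over single probes and 0 to 5 with an array left out. Without a filter it was 9996 among 45616 genes, of which 9648 were higher. The replicate numbers were not taken to pair the samples: deviations of same-numbered arrays correlated at 0.25, 0.05 and 0.41, and 1 of 3 vehicle arrays correlated best with its own number. With the replicate block the lowest adjusted p of the 10 genes was 0.660 by limma. Dim probes are the least certain, with the bar for detection differing between the groups.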

Other observations

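Probes of undetected subunits showed how the floor of the arrays differs between the groups. The Cacna1b probe A_55_P2716214 had vehicle levels of -6.86, -6.98 and -6.87 and MPE levels of -6.42, -6.43, -6.41 and -6.43, so that all MPE arrays lay above all vehicle arrays by a mean of 0.48 with a very small spread. The single probe of Cacna1e had vehicle levels of -6.93, -7.05 and -6.94 and MPE levels of -6.47, -6.47, -6.42 and -6.48. Over the 22213 probes well above background on no array, the median level was -6.86 to -6.74 on vehicle arrays and -6.34 to -6.31 on MPE arrays, so these gaps lay within 0.1 log2 units of the gap between the floors.

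The skeletal-muscle pore gene Cacna1s was well above background on 1 array, MPE replicate 1, at -2.78. The remaining MPE arrays gave -6.39 to -5.83, and vehicle arrays -6.82 to -5.58. A Cacna2d2 probe (A_51_P171711) was likewise above background on MPE replicate 2 alone, at -3.54, where the other 6 arrays lay from -7.03 to -5.53. None of the 27 probes of the 10 subunit genes had an array more than 8-fold above the mean of its 3 lowest arrays.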
